A study of Homo sapiens with 9 samples.

Results

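A set of 10 genes that the transcription factor ATF4 controls or that act with it in amino acid and cystine supply were followed in A375P cells, an established human melanoma line, on 9 gene-level exon arrays. They were chosen by symbol, with earlier results of these data known. The set holds the carriers SLC7A11 and SLC7A5, the glutathione-cleaving enzyme gene CHAC1 and the synthesis enzymes PHGDH, PSAT1 and ASNS. It also holds the stress genes TRIB3, DDIT3 and SESN2, and ATF4 itself. All 10 had a row that named a single gene, among 17047 genes with such a row, and all 10 were among the 12785 genes tested after the dimmest 25% were left out. A gene with several rows was represented by its brightest row on average.

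The cells were given 1 µM PD184352, which inhibits the MEK kinases, 0.4 µM PLX4720, which inhibits mutant BRAF, or the solvent DMSO, for 2, 6 or 24 h, with 1 column of values, called an array in what follows, for each treatment and time. All were grown in the same serum-containing medium, and a single line serves as the model. The design speaks of triplicates, and the sources used here do not say whether a column averages them. Median intensities lay between 98.96 and 102.4. Of 7 melanocyte lineage markers 5 had a row, of which MITF, SOX10 and PMEL read between 9.32 and 11.18 (log2), S100B between 7.55 and 9.38 and MLANA only 6.25 to 6.92. Of markers of other cell types, the leukocyte genes PTPRC and CD3E, the endothelial gene PECAM1 and the fibroblast gene DCN read no more than 5.37 and were among the dim genes left out. The keratinocyte gene KRT14 (7.53 to 7.85) and the fibroblast gene COL1A1 (7.38 to 7.56) read above MLANA, and the fibroblast gene COL1A2 read 6.25 to 6.43, so the markers do not separate the lineages throughout.

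ATF4 is made when a kinase that senses missing amino acids, unfolded protein, double-stranded RNA or haem shortage phosphorylates the initiation factor eIF2. General translation then slows, while the ATF4 message, which has short upstream reading frames, is translated more. ATF4 pairs with C/EBP-type partners and switches on carriers, synthesis enzymes and tRNA synthetases, and in a longer stress the death-linked genes DDIT3, TRIB3 and CHAC1. An array reads the ATF4 message and not the protein.

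ATF4 and its C/EBP partners bind a composite element that is known from the promoters of such targets. Its core was searched as TGATGNAA on both strands of RefSeq promoter windows (GRCh38.p14, 250 bases before to 50 after a start). The windows of 9 members were found, with none for SLC7A11, and the core lay in those of CHAC1 and ASNS, 2 of 9, against 4.46% of the 27305 genes with a window (a gene with several windows counts if any holds it). For ASNS it lay in 1 of 2 windows. The windows that hold the core are shown, 5′ to 3′ on the gene's strand, with the core in capitals.
CHAC1, chr15:40953221-40953520, plus strand: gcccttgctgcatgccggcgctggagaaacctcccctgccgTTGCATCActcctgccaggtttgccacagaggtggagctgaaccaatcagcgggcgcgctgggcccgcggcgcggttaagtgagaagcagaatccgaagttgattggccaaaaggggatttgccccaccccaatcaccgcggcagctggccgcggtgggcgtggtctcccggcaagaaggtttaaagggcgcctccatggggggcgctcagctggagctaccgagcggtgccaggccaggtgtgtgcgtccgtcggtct
ASNS, chr7:97872359-97872658, minus strand: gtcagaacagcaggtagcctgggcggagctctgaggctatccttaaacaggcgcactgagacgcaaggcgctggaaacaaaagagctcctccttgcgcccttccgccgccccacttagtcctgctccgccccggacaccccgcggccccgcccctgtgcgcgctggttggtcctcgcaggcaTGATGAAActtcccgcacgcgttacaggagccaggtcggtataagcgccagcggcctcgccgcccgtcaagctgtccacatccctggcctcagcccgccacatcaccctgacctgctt
In CHAC1 the match, TTGCATCA, is the core read on the opposite strand and begins 209 bases before the start, and in ASNS the match, TGATGAAA, begins 68 bases before it. The E-box CACGTG, bound by MYC-type factors, lay in the windows of SLC7A5 and ATF4 (2 of 9, against 8.77% of genes). The antioxidant element core TGACNNNGC, bound by NRF2, lay in those of SLC7A5 and TRIB3 (2 of 9, against 16.1%), and no 2 of these matches overlapped. A match is a stretch of letters and not a measured binding site.

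At 24 h, 7 of the 10 genes fell with the inhibitors, and none rose: both carriers, CHAC1, the 3 synthesis enzymes and TRIB3. Over all genes tested, 19.2% were called lower and 12.5% higher at 24 h, so a fall was common at this time. The median change of the members, chosen with earlier results of these data known, was −0.77 (log2), beside −0.01 over all genes. DDIT3, ATF4 and SESN2 did not pass. In bulk RNA, fewer cells that express a gene and less of its RNA per cell cannot be told apart. Each change is the mean of both inhibitor arrays minus the DMSO array of that time, on the log2(intensity + 1) scale, where changes of dim genes come out too small, with limma's moderated standard error (SE) and a call at an adjusted p below 0.05. The error in this test is taken from the gap between PD184352 and PLX4720, although they are no replicates of each other, and no DMSO array has a second one beside it.

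**Figure D1:**
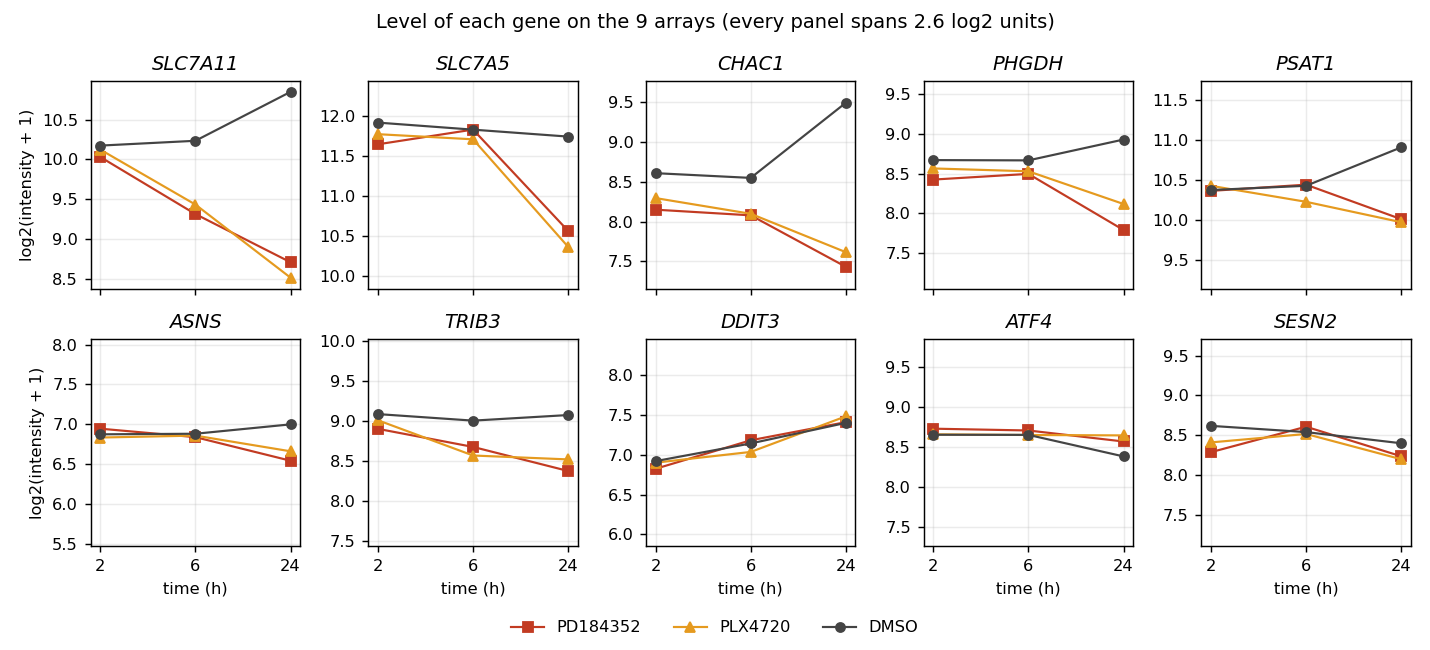
Log2(intensity + 1) of the 10 genes at 2, 6 and 24 h (times drawn at equal steps), with PD184352 as squares, PLX4720 as triangles and DMSO as circles, 1 array per point. SLC7A11 and CHAC1 part furthest at 24 h, where both inhibitor arrays are at most 8.71 and 7.62, against 10.85 and 9.49 with DMSO, while the lines of DDIT3 run together.

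SLC7A11 codes for the carrier that brings in cystine in exchange for glutamate and so feeds glutathione synthesis. Its level was 10.03, 9.32 and 8.71 (log2) with PD184352 at 2, 6 and 24 h, and 10.12, 9.44 and 8.52 with PLX4720, against 10.17, 10.23 and 10.85 with DMSO. The inhibitor arrays went down at each step while the DMSO array was highest at 24 h. At 24 h the change was −2.23 (SE 0.11, adjusted p = 1.4e-06), a level 0.213 times that of DMSO. SLC7A11 had already fallen at 6 h, by 0.86 (SE 0.11, adjusted p = 0.0019), and at 2 h it was at −0.10 (SE 0.11, adjusted p = 0.875).

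SLC7A5, a carrier of large neutral amino acids such as leucine, is a relative of SLC7A11 and shares its heavy-chain partner SLC3A2. Its level was 11.64, 11.83 and 10.56 with PD184352 and 11.77, 11.71 and 10.36 with PLX4720, against 11.92, 11.83 and 11.74 with DMSO. The inhibitor arrays lay close to DMSO at 6 h and well below every DMSO array at 24 h. The change was −1.28 at 24 h (SE 0.11, adjusted p = 2.0e-05), and −0.06 at 6 h (SE 0.11, adjusted p = 0.862).

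CHAC1 cleaves glutathione inside the cell. It read 8.15, 8.08 and 7.43 with PD184352 and 8.29, 8.10 and 7.62 with PLX4720, against 8.61, 8.55 and 9.49 with DMSO. All 6 inhibitor arrays lay below all 3 DMSO arrays, and the DMSO array was highest at 24 h. The change was −1.96 at 24 h (SE 0.10, adjusted p = 2.7e-06), a level 0.256 times that of DMSO. At 6 h it was −0.46 (SE 0.10, adjusted p = 0.0436), a call that was lost without any 1 of the 4 inhibitor arrays of 2 h and 6 h, with an adjusted p between 0.0621 and 0.158. At 2 h it stood at −0.38 (SE 0.10, adjusted p = 0.411), which did not pass.

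PHGDH and PSAT1 code for the first and second enzymes of serine synthesis from a glycolytic intermediate. PHGDH read 8.42, 8.50 and 7.79 with PD184352 and 8.56, 8.53 and 8.12 with PLX4720, against 8.67, 8.67 and 8.93 with DMSO. PSAT1 read 10.36, 10.44 and 10.01 with PD184352 and 10.43, 10.22 and 9.97 with PLX4720, against 10.37, 10.43 and 10.91 with DMSO. Both genes separated from DMSO only on the 24 h arrays to an extent that passed the test. PHGDH fell by 0.97 (SE 0.13, adjusted p = 0.00027) and PSAT1 by 0.92 (SE 0.10, adjusted p = 9.8e-05). Of the members' changes at 24 h, that of PHGDH differed most between the inhibitors, at −1.13 with PD184352 and −0.81 with PLX4720.

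ASNS makes asparagine from aspartate and is a textbook target of ATF4 in amino acid shortage. Its brightest row, transcript cluster 3133695, read 6.95, 6.84 and 6.54 with PD184352 and 6.83, 6.86 and 6.66 with PLX4720, against 6.88, 6.88 and 6.9998 with DMSO. It fell by 0.40 at 24 h (SE 0.09, adjusted p = 0.00847), the smallest of the 7 falls on the rows used. The row next in mean level, transcript cluster 3062576, read 6.63, 6.70 and 6.39 with PD184352 and 6.72, 6.75 and 6.39 with PLX4720, against 6.70, 6.91 and 7.35 with DMSO. In its place the 24 h change was −0.97 (SE 0.09, adjusted p = 2.5e-05), over 2 times as large on the log2 scale, so the size for ASNS depends on the row, and with the second row TRIB3 would have the smallest fall. RefSeq lists pseudogene copies of ASNS, the annotation gives all 3 rows to ASNS alone, and whether the brightest row reads the functional gene was not tested. The third row, 3133685, was dim, with a mean of 5.45, and stood at −0.13 with PD184352 and −0.09 with PLX4720 at 24 h.

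**Figure D2:**
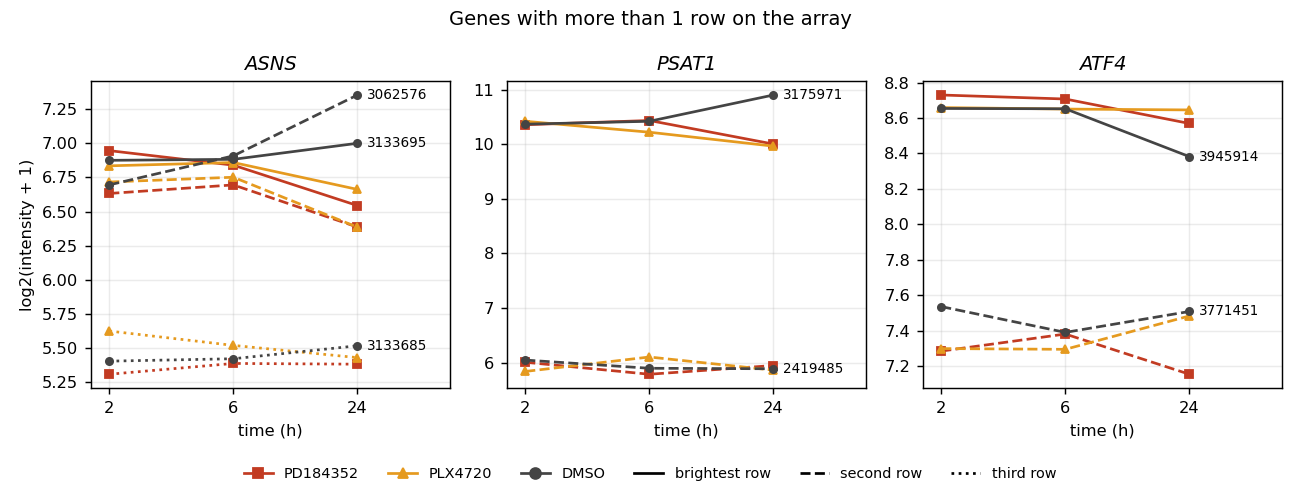
Log2(intensity + 1) of each row of the 3 members with several rows at 2, 6 and 24 h (times at equal steps), with solid, dashed and dotted lines for rows in order of mean level and colours for treatments. The second ASNS row parts more at 24 h (6.39 with each inhibitor, against 7.35 with DMSO) than the brightest one, the dim PSAT1 row stays flat, and the 2 ATF4 rows differ in sign at 24 h.

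The dimmer row of PSAT1, 2419485, with a mean of 5.93, was at 0.02 at 24 h (SE 0.13, adjusted p = 0.948), against −0.92 for the bright one, whose mean was 10.35. What the dim rows of PSAT1 and ASNS read was not tested.

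TRIB3 is a pseudokinase that ATF4 and DDIT3 induce and that in turn restrains them. It read 8.90, 8.68 and 8.38 with PD184352 and 9.01, 8.57 and 8.52 with PLX4720, against 9.09, 9.01 and 9.08 with DMSO. The DMSO arrays were nearly level, and every inhibitor array of 6 h and 24 h lay below all of them. TRIB3 fell by 0.63 at 24 h (SE 0.10, adjusted p = 0.000906). At 6 h it was at −0.38 (SE 0.10, adjusted p = 0.0736), which did not pass. That 6 h value passed without either inhibitor array of 24 h, though the change was the same and its SE larger (0.107 against 0.0999). A pass there thus comes from the fit and adjustment over all genes. The 6 h value also passed with the dimmest 50% of genes left out (adjusted p = 0.0379) and with all 3 DMSO arrays as control (−0.43, adjusted p = 0.00827).

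DDIT3, known as CHOP, is the death-linked transcription factor that ATF4 induces under stress. It read 6.82, 7.18 and 7.41 with PD184352 and 6.90, 7.03 and 7.48 with PLX4720, against 6.92, 7.14 and 7.40 with DMSO. The levels were higher at later times in all 3 treatments, and the treatments lay close together at each time. The change was 0.05 at 24 h (SE 0.10, adjusted p = 0.795).

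The ATF4 message read 8.73, 8.71 and 8.57 with PD184352 and 8.66, 8.65 and 8.65 with PLX4720, against 8.65, 8.65 and 8.38 with DMSO. The DMSO 24 h array was the lowest of the 9. The change at 24 h was 0.23 (SE 0.09, adjusted p = 0.079), which did not pass, though it did after quantile normalization (0.27, adjusted p = 0.0408). The second ATF4 row, 3771451, gave −0.19 (SE 0.12, adjusted p = 0.301), and what that row reads was not tested. With the DMSO 2 h and 6 h arrays as control, chosen after the values were seen, the brightest row was at −0.05. On the brightest row alone, the direction for the ATF4 message is therefore not settled by these arrays.

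SESN2, a stress-induced inhibitor of mTORC1 that senses leucine, read 8.29, 8.61 and 8.24 with PD184352 and 8.41, 8.52 and 8.20 with PLX4720, against 8.62, 8.54 and 8.40 with DMSO. The inhibitor arrays were below DMSO at 2 h and 24 h and close to it at 6 h. The change was −0.27 at 2 h (SE 0.09, adjusted p = 0.528) and −0.18 at 24 h (SE 0.09, adjusted p = 0.174), and neither passed.

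At 6 h, 2 of the 10 members were called lower, SLC7A11 and CHAC1, and none higher, beside 2.74% lower and 0.54% higher over all genes. The median change of the members was −0.08 and that of all genes −0.02. At 2 h, 0 of 10 members were called by limma, beside 0.0704% lower and 0.0156% higher over all genes, and 2 members, CHAC1 and SESN2, had an unadjusted p below 0.05, beside 7.41% of all genes. The mean of both inhibitors lay below DMSO for 7 members at 2 h, 8 at 6 h and 8 at 24 h, beside 58.3%, 55.4% and 51.7% of all genes at those times, and both inhibitors share the DMSO array of a time.

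**Figure D3:**
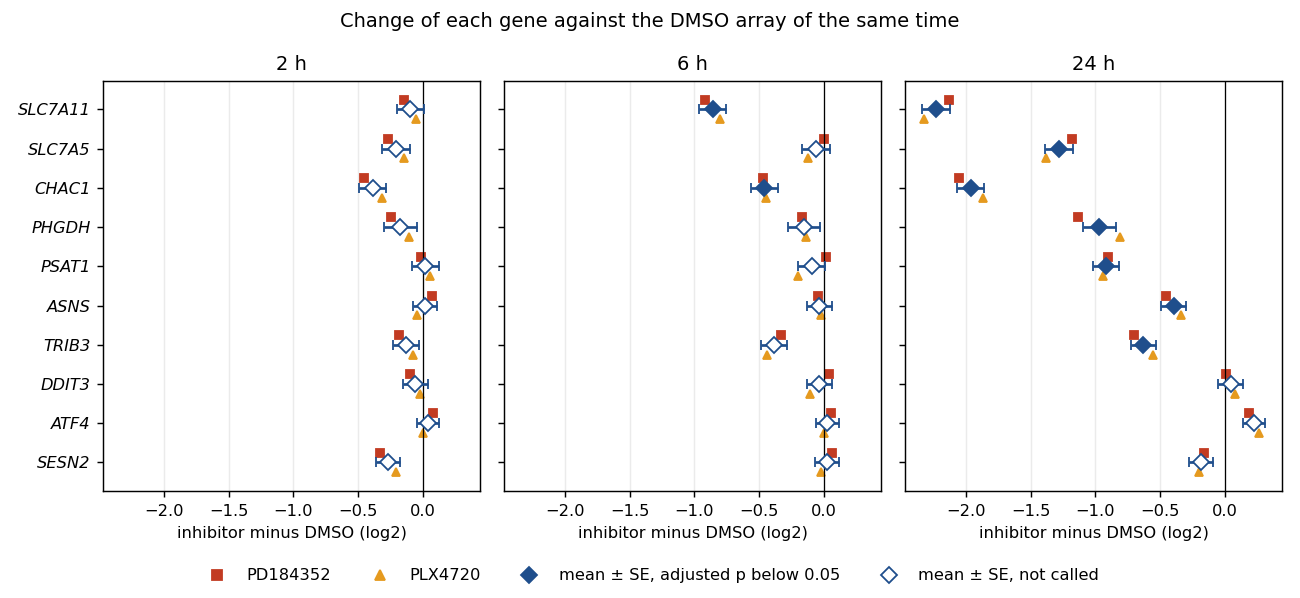
Difference from the DMSO array at the matching time (log2) for each gene at 2, 6 and 24 h, with squares for PD184352, triangles for PLX4720 and diamonds for their mean with its SE, filled where the adjusted p is below 0.05. No diamond is filled at 2 h, those of SLC7A11 and CHAC1 are at 6 h, and 7 are at 24 h.

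The change differed between the times for 5 members by limma's F-test, beside 14.9% of all genes. They were SLC7A11 (24 h change minus 2 h change −2.14, adjusted p = 0.000161), CHAC1 (−1.58, adjusted p = 0.000283), SLC7A5 (−1.07, adjusted p = 0.00116), PSAT1 (−0.94, adjusted p = 0.00328) and PHGDH (−0.80, adjusted p = 0.0165). TRIB3, at −0.50 (adjusted p = 0.0918), and the brightest ASNS row, at −0.41 (adjusted p = 0.101), did not pass, while the second ASNS row did (adjusted p = 0.00142). SLC7A11 and CHAC1 passed at 6 h and at 24 h, and the other 5 falls were called at 24 h alone, where the 6 h call of TRIB3 depends on the settings given above. The courses of the 7 genes were compared with each other only by these values.

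Part of the 24 h change came with a DMSO level that was higher at 24 h than at 2 h. The DMSO 24 h array exceeded the DMSO 2 h array by 0.88 for CHAC1, 0.67 for SLC7A11 and 0.54 for PSAT1, 3 of 10 members with a gap of 0.5 or more, beside 1.92% of all genes. Over the same span the level changed by −0.72 for CHAC1 with PD184352 and by −0.68 with PLX4720, by −1.32 and −1.61 for SLC7A11, and by −0.35 and −0.46 for PSAT1. These are differences between single arrays, with no test. With the DMSO 2 h and 6 h arrays as the control, a choice made after the values were seen, the 24 h change was −1.05 for CHAC1 (SE 0.08, adjusted p = 8.0e-06), −1.59 for SLC7A11 (SE 0.09, adjusted p = 1.1e-06) and −0.41 for PSAT1 (SE 0.08, adjusted p = 0.00292).

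The same 7 genes were called lower with that control, and SESN2 was too, at −0.36 (SE 0.08, adjusted p = 0.00358). DDIT3 was called higher there, at 0.41 (SE 0.09, adjusted p = 0.00462), where the DMSO array itself had moved up by 0.48 between 2 h and 24 h. For 8 of 10 members both 24 h inhibitor arrays lay below all 3 DMSO arrays, beside 30.6% of all genes, and for DDIT3 they lay above, as for 27.7% of all genes. The size of the 24 h falls of SLC7A11, CHAC1 and PSAT1 thus rests in part on the DMSO 24 h array, and their direction was the same without it. With the earlier DMSO arrays as control PHGDH went from −0.97 to −0.71 and ASNS from −0.40 to −0.28. TRIB3 went from −0.63 to −0.60, and SLC7A5 went the other way, from −1.28 to −1.41.

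**Figure D4:**
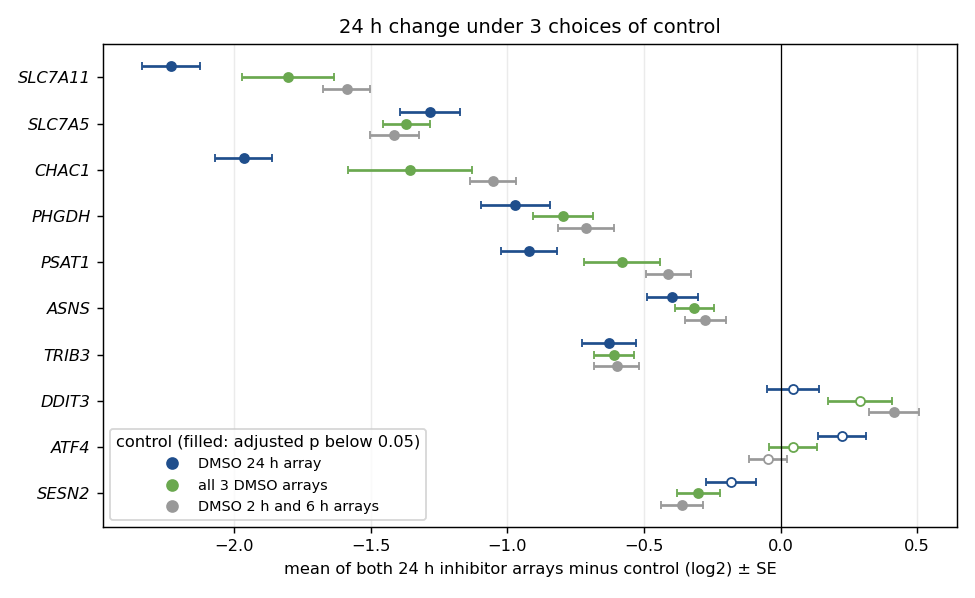
Mean of both 24 h inhibitor arrays minus the control (log2, bars are SE) for each gene with the DMSO 24 h array, all 3 DMSO arrays, or the DMSO 2 h and 6 h arrays as control, filled where the adjusted p is below 0.05. SLC7A11 spans −2.23 to −1.59, CHAC1 −1.96 to −1.05 and PSAT1 −0.92 to −0.41. TRIB3 stays between −0.63 and −0.60, and DDIT3 is filled with the earlier DMSO arrays alone.

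PD184352 and PLX4720 act on successive kinases of the pathway and were given at different doses. On the 6 inhibitor arrays with time as a block, 0 of 10 members were called different by limma after adjustment over all genes, where 0% of genes were called, and 1 member, PHGDH, had an unadjusted p below 0.05, beside 4.34% of all genes. PHGDH was at −0.17 (PD184352 minus PLX4720, 95% interval −0.32 to −0.01, adjusted p = 1.00). These differences are averages over 2, 6 and 24 h. Over the 10 members their intervals ran from −0.32 to 0.23, and a difference at a single time has no interval. For SLC7A11 the interval was −0.17 to 0.16 and for CHAC1 −0.26 to 0.03. At 24 h, 4 members were at least 2-fold lower with PD184352 (SLC7A11, CHAC1, SLC7A5 and PHGDH; 3.15% of all genes) and 3 with PLX4720 (the same without PHGDH; 2.39%), as single arrays with no test.

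Outside the 10 members, 112 other genes were listed, also with earlier results of these data known, and of these 95 were tested. Besides genes of the ATF4 pathway they include paralogs, glutathione and NRF2 genes and chaperone-type genes of other unfolded protein branches. At 24 h 46 of the 95 fell and 7 rose, beside 19.2% and 12.5% of all genes, with a median of −0.24. The same shares stand beside the 24 h count of each list in what follows. At 6 h 5 fell and 1 rose, beside 2.74% and 0.54% of all genes, and at 2 h limma called 0.

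Among amino acid carriers, 7 of 11 tested fell at 24 h and none rose, with a median of −0.58. SLC1A5, a glutamine and neutral amino acid carrier, read 8.83 with PD184352 and 9.20 with PLX4720 at 24 h, against 10.84 with DMSO, a change of −1.82 (SE 0.14). The cationic amino acid carrier SLC7A1 was at −1.50 (SE 0.12) and the glutamine carrier SLC38A1 at −1.44 (SE 0.13). SLC3A2, the heavy chain that SLC7A11 and SLC7A5 need at the membrane, read 9.17 and 9.22 with PD184352 and PLX4720, against 10.03 with DMSO, a change of −0.83 (SE 0.09). The messages of both light chains and of their shared heavy chain were thus lower at 24 h.

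Of 6 serine and folate enzymes 5 fell, led by MTHFD2 of the mitochondrial folate cycle at −1.64 (SE 0.16), with ALDH1L2 at −0.79 (SE 0.11), MTHFD1 at −0.74 (SE 0.10) and SHMT2, which splits serine in mitochondria, at −0.74 (SE 0.10). ALDH1L2 read 6.63 with PD184352 and 6.77 with PLX4720 at 24 h, against 6.71, 6.84 and 7.49 with DMSO at 2, 6 and 24 h. Its fall thus rests mainly on the DMSO 24 h array. The cytosolic SHMT1, named after its value was seen like LARS1 and GCLC in what follows, was at 0.02 (SE 0.09). Of 13 genes of tRNA charging and export 12 fell, with a median of −0.71, among them MARS1 at −1.11 (SE 0.11), IARS1 at −0.80 (SE 0.09), YARS1 at −0.80 (SE 0.10) and AARS1 at −0.75 (SE 0.11), while LARS1 was at −0.11 (SE 0.09). AARS1 read 10.99 and 11.22 with PD184352 and PLX4720 at 24 h, against 11.22, 11.32 and 11.86 with DMSO. The size of its fall thus rests largely on the DMSO 24 h array. Of 8 other amino acid enzymes 2 fell, where 19.2% of all genes were called lower at 24 h. These 2 were CBS (−0.55, SE 0.09) and CTH (−0.49, SE 0.10), which make cysteine from homocysteine.

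The glutathione and NRF2 list was mixed, with 6 of 12 lower and 2 higher, beside 19.2% and 12.5% of all genes. SRXN1, which repairs oxidised peroxiredoxins, was at −0.91 (SE 0.11), CHAC2, the paralog of CHAC1, at −0.78 (SE 0.11), GCLM, the modifier subunit of glutathione synthesis, at −0.64 (SE 0.09) and the thioredoxin reductase TXNRD1 at −0.62 (SE 0.09). The catalytic subunit GCLC was at −0.18 (SE 0.09, adjusted p = 0.149). The genes called higher, chosen for mention after their values were seen, were haem oxygenase HMOX1 (0.42, SE 0.12) and the lipid peroxide enzyme GPX4 (0.35, SE 0.09). HMOX1 read 8.47 with PD184352 and 8.27 with PLX4720 at 24 h, against 8.66, 8.42 and 7.95 with DMSO at 2, 6 and 24 h. Both inhibitor arrays were thus below the DMSO 2 h array, and the call rests on the low DMSO 24 h array. GPX4 read 10.88 and 10.85, above 10.64, 10.52 and 10.52 with DMSO.

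**Figure D5:**
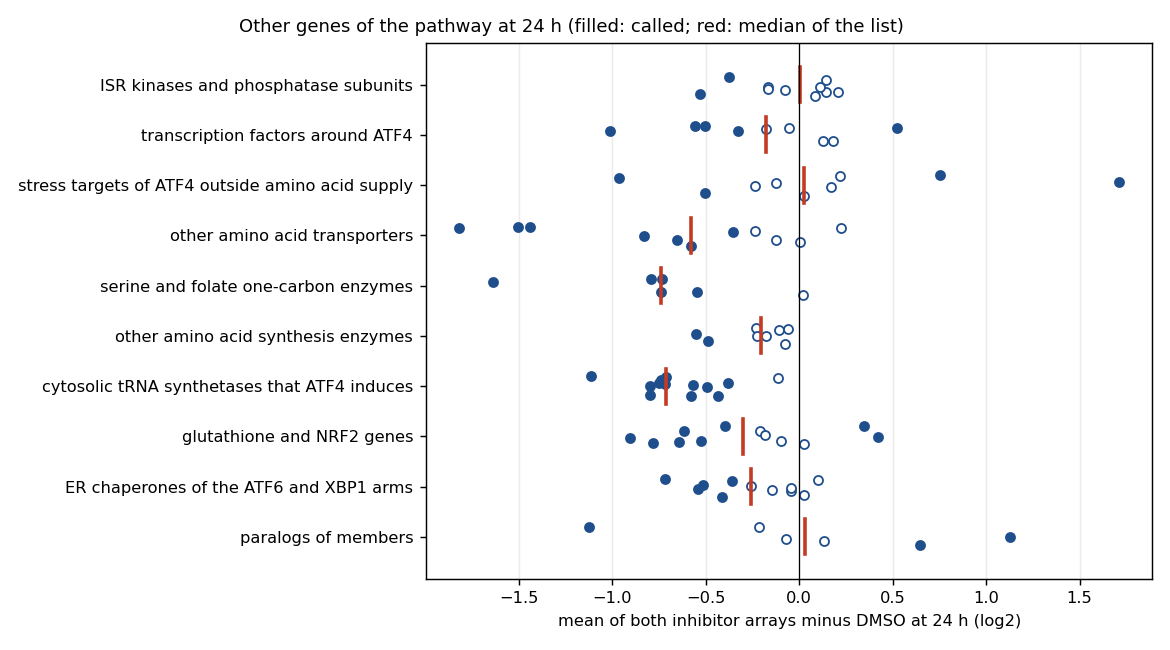
Mean of both inhibitor arrays minus DMSO at 24 h (log2) for each tested gene of 10 lists, filled where the adjusted p is below 0.05, with a red bar at each list's median. The medians lie furthest down for serine and folate enzymes (−0.74), tRNA synthetases (−0.71) and amino acid carriers (−0.58), and near 0 for the kinases and phosphatase subunits of the stress response, the other stress targets and the paralogs.

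Of 10 genes for the eIF2 kinases, phosphatase subunits and their partners 2 fell, close to the 19.2% of all genes called lower at 24 h, the eIF2 subunit EIF2S1 (−0.53, SE 0.10) and the RNA-sensing kinase EIF2AK2 (−0.37, SE 0.10). Of 9 factors around ATF4 4 fell and 1 rose, beside 19.2% and 12.5% of all genes. The dimer partner CEBPG was at −1.01 (SE 0.10), XBP1 at −0.56 (SE 0.09), CEBPB at −0.50 (SE 0.09), and ATF3 at 0.52 (SE 0.14). CEBPB was also called at 6 h, at −0.38 (SE 0.09).

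Genes listed as stress targets of ATF4 outside amino acid supply moved both ways, with 2 of 9 lower and 2 higher, where 19.2% and 12.5% of all genes were called. The growth factor VEGFA was at −0.97 (SE 0.09) and the oxidase ERO1A at −0.50 (SE 0.09), while KLHL24 was at 1.71 (SE 0.13) and RIT1 at 0.75 (SE 0.11). VEGFA was also called at 6 h, at −0.70 (SE 0.09). Of 11 chaperone-type genes of the other unfolded protein branches 5 fell, beside 19.2% of all genes. Among them were EDEM1 (−0.72, SE 0.11), PDIA4 (−0.54, SE 0.11), SDF2L1 (−0.52, SE 0.11) and HYOU1 (−0.41, SE 0.10). EDEM1 was also called at 6 h, at −0.48 (SE 0.11).

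Of 6 paralogs 2 were called higher and 1 lower at 24 h, beside 12.5% and 19.2% of all genes. At 6 h 1 was called higher and 2 lower, beside 0.54% and 2.74% of all genes. SESN3, of the family of SESN2, read 11.02 with PD184352 and 10.90 with PLX4720 at 24 h, against 9.83 with DMSO, a rise of 1.13 (SE 0.10), and had risen at 6 h, at 0.68 (SE 0.10). SLC7A8, a carrier close to SLC7A5, read 7.48 and 7.42, against 6.81, a rise of 0.64 (SE 0.09). TRIB1, of the family of TRIB3, was at −1.12 (SE 0.12) at 24 h and had fallen at 6 h, at −0.80 (SE 0.12). At 2 h TRIB1 already stood at −0.78, which was not called. TRIB2, of the same family and named after its value was seen, was called lower at 6 h, at −0.85 (SE 0.15, adjusted p = 0.0121), and not at 24 h, at −0.22 (SE 0.15, adjusted p = 0.324). The differences between a member and its paralog were not tested.

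Among the members, DDIT3 and ATF4 were most alike over their 6 differences from DMSO (root mean square distance 0.13, log2), though the median distance of all other genes was 0.17 from DDIT3 and 0.20 from ATF4, followed by PHGDH and PSAT1 (0.18). Outside the members, the genes nearest to CHAC1 were SLC1A5 (0.16), DDIAS (0.18) and CDC25A (0.19), and those nearest to SLC7A11 were INPP5F (0.28), CDC25A and FANCB (0.30 each). Nearest to SLC7A5 were CENPE (0.10), VGF (0.12) and LOC100288637 (0.13), and to PHGDH, AK4 (0.06), CDC20 (0.07) and PHF19 (0.07). The median distance of all other genes was 1.19 from CHAC1, 1.39 from SLC7A11, 0.76 from SLC7A5 and 0.59 from PHGDH. SLC3A2 was among the 3 genes nearest to PSAT1 (0.06), a value singled out after it was seen.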

How the data were processed

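The authors deposited 1 table of intensities on a linear scale, a row per transcript cluster of a gene-level exon array and a column per treatment and time. RMA, R 2.8.0 and limma are listed, per the submitters' processing notes, with no role or order, and the sources used here do not state a genome build. The platform table gave 1 gene symbol for 19380 of 35446 rows, several for 3339 and none for 12727. Symbols were checked by gene identifier against RefSeq (GRCh38.p14), and 0 changed. The row with the highest mean stood for a gene, log2(value + 1) was taken, and the 4262 dimmest genes were left out.

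limma 3.58.1 in R 4.3.3 was run on all 12785 genes with Benjamini-Hochberg adjustment. The change at each time had 3 residual degrees of freedom, and PD184352 against PLX4720, on the inhibitor arrays with time as block, had 2. No separate cultures can be told apart in the columns, so p-values measure the spread between these arrays, which may be technical, and for arrays their number limits the precision. Both fits were run on simulated data with independent noise and no drift between DMSO arrays. For the change at a time, both inhibitors were given the same shift. These runs cannot show how the calls fare where the inhibitors differ or the DMSO level drifts. The members and lists were chosen with earlier results of these data known. Named were all members, up to 4 called genes of each list by size of the 24 h change, and the 3 nearest genes of the 4 members with the largest change. Alternatives were the filter, pseudocount, normalization, row, control array and each array left out.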

Additional observations from a re-analysis of the deposited data

Results flagged for a closer look

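The change against DMSO differed between 2, 6 and 24 h for 5 members, by limma's F-test of that difference. The adjusted p was 0.000161 for SLC7A11, whose changes were −0.10, −0.86 and −2.23 (log2) in order of time, and 0.000283 for CHAC1, at −0.38, −0.46 and −1.96. It was 0.00116 for SLC7A5, at −0.21, −0.06 and −1.28, 0.00328 for PSAT1, at 0.02, −0.09 and −0.92, and 0.0165 for PHGDH, at −0.17, −0.15 and −0.97. The DMSO array of 24 h stood above that of 2 h by 0.88 for CHAC1, 0.67 for SLC7A11, 0.54 for PSAT1 and 0.26 for PHGDH, and below it by 0.18 for SLC7A5. How much of the difference between times comes with those DMSO levels was not tested.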

How the results depend on the processing

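At 24 h the count of 7 members called lower was 7 without any 1 array (leaving out DMSO 24 h leaves no control of that time), with no filter, either other pseudocount, median scaling and the mean of all rows. It was 6 with the stricter filter, which removes ASNS. It was also 6 with the second rows, where PSAT1 is lost through a dim row (mean 5.93) whose reading was not tested. It was 8 with all 3 DMSO arrays or the DMSO 2 h and 6 h arrays as control, which add SESN2, and after quantile normalization 7 were lower and ATF4 higher. The count of 2 members at 6 h was 1 with no filter and 1 after quantile normalization, 1 to 3 without any 1 array, and 3 with the stricter filter, which adds TRIB3 (adjusted p = 0.0379). CHAC1 was lost there with an adjusted p of 0.0965 with no filter, 0.0949 after quantile normalization and 0.0894 with all 3 DMSO arrays, where TRIB3 was called in its place (adjusted p = 0.00827). The causes were not tested. The 5 members that differed between times were 4 to 6 without any 1 array and 7 with all 3 DMSO arrays as control. The 53 other listed genes called at 24 h were 50 to 54 without any 1 array. At 2 h and between the inhibitors 0 members were called by limma under each alternative run.

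Signs turned for several changes, of which PSAT1 at 24 h with the second row was the only one called lower or higher in the reported fit, and the causes were not tested. After quantile normalization SLC7A11 at 2 h was 0.0031 and ASNS at 2 h −0.014. With median scaling PSAT1 at 2 h was −0.0037 and ASNS −0.0094. With the mean of all rows PSAT1 at 2 h was −0.052, and ATF4 was −0.10 at 2 h and −0.013 at 6 h. With all 3 DMSO arrays as control PSAT1 at 2 h was −0.17 and ASNS −0.029. With the second rows, chosen after the values were seen, PSAT1 was −0.12 at 2 h, 0.049 at 6 h and 0.017 at 24 h. There ASNS was −0.021 at 2 h, and ATF4 −0.24, −0.052 and −0.19 at 2, 6 and 24 h. What these second rows read was not tested. With the DMSO 2 h and 6 h arrays as control ATF4 at 24 h was −0.046. Without any 1 array the ranges at 2 h were −0.011 to 0.053 for PSAT1 and −0.040 to 0.071 for ASNS, and at 6 h −0.12 to 0.00085 for SLC7A5, −0.20 to 0.014 for PSAT1, −0.11 to 0.040 for DDIT3, −0.0016 to 0.055 for ATF4 and −0.024 to 0.067 for SESN2.

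No paired analysis was possible because each treatment and time had 1 column, so replicate numbers pair nothing, and time was the block only between PD184352 and PLX4720. When an inhibitor array is left out, the array that remains is assumed to vary like the others. The number of arrays, and not their depth, limits the precision.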
